A study of Mus musculus with 58 samples.

Results

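The genes described here are 7 components of oxidant production and oxidant defence in mouse microglia, the resident macrophages of the brain: the NADPH oxidase genes Cybb, Cyba, Ncf1, Ncf4 and Rac2, the superoxide dismutase gene Sod2 and the inducible nitric oxide synthase gene Nos2. They were listed by name with earlier results of these data known, no measured value entered the rule, and all 7 were found among the 47643 genes counted, of which 28781 had at least 1 read. The study asked how tau and the inflammatory transcription factor NF-κB shape microglia, and it holds 58 samples, of which 34 microglia libraries were used and 24 cortex samples were not analysed here. The libraries fall into 4 experiments of 2 groups each, and every library gave 1 count per gene by sequencing from the 3′ ends of transcripts.

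In the tau experiment, wild-type primary microglia grown from the hippocampi and cortices of newborn pups received 2 µg/ml of full-length tau fibrils (4 libraries) or vehicle (4 libraries) for 24 hours. In the second experiment, microglia were isolated with magnetic beads against CD11b from perfused brains of male PS19 mice, which carry the P301S human tau transgene, and of non-transgenic NTG mice, with 4 libraries each. The PS19 mice and NTG replicates 3 and 4 were 10.98 months old, and NTG replicates 1 and 2 were 11.18 months old. CD11b is also carried by granulocytes and monocytes. The third experiment compared IkbkbCA with IkbkbWT cultures, with 5 libraries each. Both carried an allele of constitutively active IKKβ, the kinase that releases NF-κB, in the Rosa locus behind a floxed stop, and IkbkbCA alone carried Cx3cr1 CreERT2/+. The fourth compared Ikbkb-/- cultures, with floxed Ikbkb and Cx3cr1 CreERT2/+, with Ikbkb+/+ cultures without Cre, with 4 libraries each. Both of these experiments used primary microglia given 4-hydroxytamoxifen, which activates CreERT2 in cells that use the Cx3cr1 promoter. In both, Cre and the loss of 1 Cx3cr1 copy came together with the change in IKKβ and cannot be told apart from it. The labels do not say which cultures shared pups, so the p-values measure the spread between these libraries, which may in part be technical.

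The phagocyte NADPH oxidase passes electrons from NADPH across a membrane to oxygen and so makes superoxide. Its catalytic subunit gp91phox (Cybb) and its partner p22phox (Cyba) sit in the membrane, while p47phox (Ncf1), p40phox (Ncf4) and a Rac GTPase (Rac2 or Rac1) join them from the cytosol when a phagocyte is activated. Superoxide is turned into hydrogen peroxide by superoxide dismutases, of which Sod2 encodes the mitochondrial manganese enzyme, and Nos2 makes nitric oxide from arginine, classically in stimulated rodent macrophages.

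In GRCm38 coordinates, Cybb lies on the minus strand of chromosome X (9435252 to 9487771), Cyba on the minus strand of chromosome 8 (122424776 to 122432930) and Ncf1 on the minus strand of chromosome 5 (134220053 to 134229625). Ncf4 lies on the plus strand (78244801 to 78262580) and Rac2 on the minus strand (78559167 to 78572783) of chromosome 15. Sod2 lies on the plus strand of chromosome 17 (13006846 to 13040063) and Nos2 on the plus strand of chromosome 11 (78920787 to 78960254). Exons of Ncf1 overlap exons of Gtf2ird2 on the other strand. Gtf2ird2 held at most 99 reads in a library, and the strand setting of the counting is not given in the sources used here.

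The 250 bases before a transcript start of the gene were given for 4 of the 7 members in a RefSeq table of GRCm38.p6. They were searched on both strands for the NF-κB site by its consensus, the interferon-stimulated response element (GAAA, any 2 bases, GAAA), the antioxidant response element (TGAC, any 3 bases, GC), the AP-1 site (TGANTCA) and the PU.1 core (GAGGAA), PU.1 being a transcription factor of macrophages. The promoters of Cybb (chrX:9469325-9469574, minus strand), Ncf1 (chr5:134229626-134229875, minus strand) and Sod2 (chr17:13007589-13007838, plus strand) are printed 5′ to 3′ because these genes moved in the comparisons below and their windows differ in the sites they hold. Capitals mark the matches. The starts that the RefSeq table uses for Cybb and Sod2 lie inside the GENCODE gene spans given above, which also cover transcripts that start elsewhere, and the last bases of the Sod2 window lie in the exon of another annotated Sod2 transcript.
Cybb: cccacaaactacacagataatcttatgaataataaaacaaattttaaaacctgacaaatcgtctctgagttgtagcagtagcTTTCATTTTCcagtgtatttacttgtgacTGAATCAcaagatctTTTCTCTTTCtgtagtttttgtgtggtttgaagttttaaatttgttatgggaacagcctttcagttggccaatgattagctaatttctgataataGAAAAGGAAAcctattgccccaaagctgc
Ncf1: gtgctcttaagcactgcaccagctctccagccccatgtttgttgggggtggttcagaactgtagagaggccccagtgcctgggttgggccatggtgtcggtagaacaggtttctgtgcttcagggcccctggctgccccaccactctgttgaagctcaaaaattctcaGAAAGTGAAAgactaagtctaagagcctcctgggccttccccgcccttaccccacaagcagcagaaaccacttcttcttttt
Sod2: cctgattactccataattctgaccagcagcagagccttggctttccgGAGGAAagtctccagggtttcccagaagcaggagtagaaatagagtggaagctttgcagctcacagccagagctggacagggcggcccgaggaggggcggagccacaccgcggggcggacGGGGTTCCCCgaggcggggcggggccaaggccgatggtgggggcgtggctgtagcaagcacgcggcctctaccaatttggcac
The Cybb window held 3 matches to the interferon-stimulated response element, 29, 124 and 168 bases before the start. It also held a match at 139 bases to the AP-1 pattern searched, which allows any middle base, here A. The Ncf1 window held 1 match to the interferon-stimulated response element, at 82 bases, and the Sod2 window an NF-κB site at 83 bases and a PU.1 core at 203 bases. The Cyba window held none of these 5 motifs. No 2 of these matches overlap. Among the 32851 promoters of the table, the NF-κB site was found in 7.25%, the interferon-stimulated response element in 2.98%, the antioxidant response element in 10.2%, the AP-1 site in 6.75% and the PU.1 core in 23.2%. These matches describe letters and do not show that a factor was bound.

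Total counts ran from 1672052 to 8349128 per library, and levels are given as CPM, the count of a gene relative to the library total after TMM scaling over the 34 libraries. Fold changes and the false discovery rate (FDR) come from edgeR's quasi-likelihood test within each comparison, adjusted over all genes tested, and a gene is said to have risen or fallen at an FDR under 0.05. In bulk libraries, fewer cells of a type and less RNA per cell cannot be told apart. The microglia label held unevenly for its markers, since P2ry12 stood at 2064 to 5104 CPM in the isolated cells and at 3.94 to 9.15 CPM in the tau and vehicle cultures. Ikbkb itself was at 18.7 to 24.7 CPM in the 4 Ikbkb-/- libraries and at 45.6 to 55.2 CPM in the 4 Ikbkb+/+ libraries (edgeR log2 fold change -1.20, FDR 6.3e-07). Reads of the inserted IKKβ cassette need not fall on Ikbkb, so its 45.1 to 60.4 CPM in IkbkbCA against 40.5 to 58.8 CPM in IkbkbWT checks no label.

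**Figure D1:**
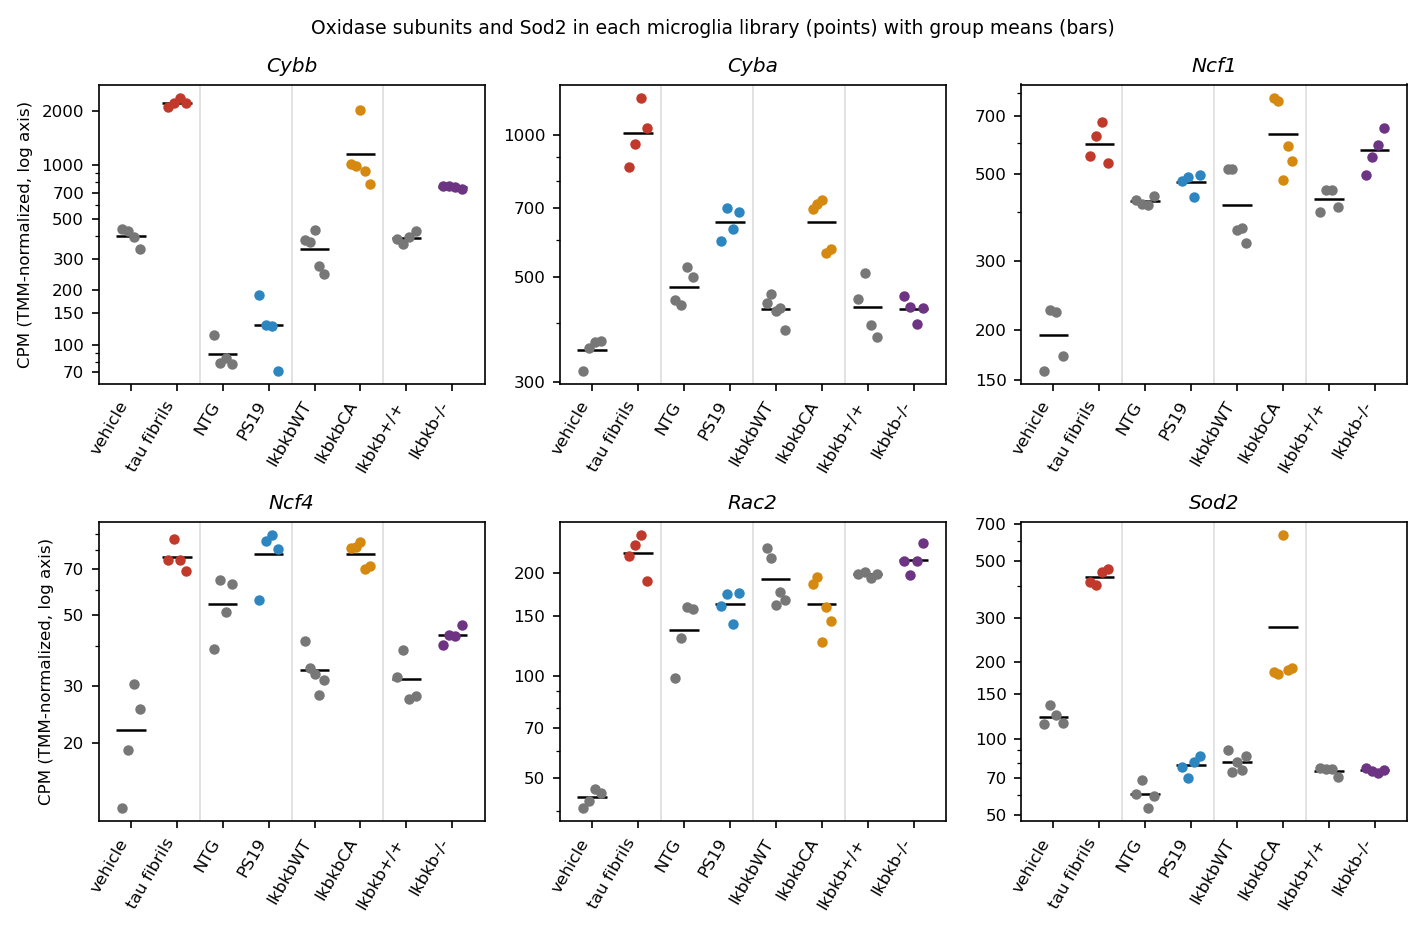
Level of 6 members in each of the 34 libraries, in CPM on a log axis, with 1 panel per gene and 1 column per group; points are libraries and bars are group means. All 4 tau fibril libraries lie above all 4 vehicle libraries in every panel, and IkbkbCA replicate 3 stands apart for Cybb (2011 CPM) and Sod2 (633 CPM).

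Over the 8 groups, Cybb varied most and Cyba least: the highest group mean was 25.0 times the lowest for Cybb, 7.18 times for Sod2, 5.24 times for Rac2, 3.57 times for Ncf4, 3.24 times for Ncf1 and 2.88 times for Cyba. The order of the mean Cybb levels was tau fibrils (2218 CPM), IkbkbCA (1144), Ikbkb-/- (753), vehicle (402), Ikbkb+/+ (393), IkbkbWT (342), PS19 (129) and NTG (88.7). The vehicle, Ikbkb+/+ and IkbkbWT libraries overlapped for Cybb, as did PS19 and NTG, and the cells taken from adult brain had the lowest levels. For Ncf4, by contrast, the IkbkbCA (77.9 CPM), PS19 (77.7 CPM) and tau fibril (76.1 CPM) means came together at the top and their libraries overlapped. Vehicle was the lowest group for Cyba (351 CPM), Ncf1 (195 CPM), Ncf4 (21.8 CPM) and Rac2 (43.7 CPM), while for Sod2 it was the third highest (122 CPM). For Rac2 the groups above vehicle ran from tau fibrils at 229 CPM to NTG at 136 CPM, with every neighbouring pair of these 7 groups overlapping. For Sod2 the groups fell into tau fibrils (434 CPM) and IkbkbCA (275 CPM), whose libraries overlapped through 1 IkbkbCA library, then vehicle, and then 5 groups between 60.5 and 81.2 CPM. The 4 experiments were made separately, so levels between them also carry differences in culture and isolation.

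After 24 hours of tau fibrils all 6 measured members were higher, the membrane and the cytosolic parts of the oxidase as well as Sod2, between 2.96-fold and 5.68-fold. Over all 10408 genes tested, 14.5% rose and 15.4% fell, and 12.6% had every tau fibril library above every vehicle library, as all 6 members did. The median log2 fold change of the 6 members was 1.86, against -0.01 over all genes tested. The members passed the test in all 14 alternatives tried.

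Cybb, the catalytic subunit, stood at 441, 426, 399 and 342 CPM in the vehicle libraries and at 2094, 2218, 2356 and 2203 CPM in the tau fibril libraries. The 2 groups were far apart, and the tau fibril libraries differed little from each other. Cybb rose 5.68-fold, a log2 fold change of 2.51 ± 0.13 (SE, n = 4 and 4; edgeR FDR 8.7e-15). Cyba, whose p22phox stabilises gp91phox in the membrane, was at 318, 354, 365 and 367 CPM with vehicle and at 857, 957, 1197 and 1034 CPM with tau fibrils. No library overlapped, and the log2 fold change was 1.57 ± 0.13 (SE; edgeR FDR 1.9e-10).

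Among the cytosolic parts, Ncf1, the organiser that docks on p22phox, was at 158, 225, 223 and 173 CPM with vehicle and at 556, 623, 676 and 531 CPM with tau fibrils. The lowest tau fibril library was above the highest vehicle library, and the log2 fold change was 1.65 ± 0.14 (SE; edgeR FDR 2.1e-10). Ncf4, whose p40phox binds the phosphoinositide of phagosome membranes, was at 12.5, 18.9, 30.5 and 25.4 CPM with vehicle and 74.7, 86.5, 74.3 and 68.9 CPM with tau fibrils. The vehicle libraries spread more widely here than for the other members, without reaching the tau fibril libraries, and the log2 fold change was 1.85 ± 0.20 (SE; edgeR FDR 4.7e-08). Rac2, the GTPase of blood-derived cells that switches the complex on, was at 40.8, 42.7, 46.2 and 45.2 CPM with vehicle and at 225, 242, 259 and 190.0 CPM with tau fibrils. Its vehicle libraries were close together, and it rose 5.40-fold, a log2 fold change of 2.43 ± 0.14 (SE; edgeR FDR 9.7e-14).

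Sod2, which removes superoxide inside mitochondria, was at 114, 136, 124 and 115 CPM with vehicle and at 414, 404, 453 and 465 CPM with tau fibrils. Both groups were tight and apart, and it rose 3.64-fold, a log2 fold change of 1.87 ± 0.13 (SE; edgeR FDR 2.5e-12).

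The make-up of the cultures differed between these groups. Summed over 12 microglia markers, the vehicle libraries held 6746 to 8964 CPM and the tau fibril libraries 14253 to 16925 CPM, with 8 of the 12 markers higher, none lower and a median log2 fold change of 1.08. The 6 astrocyte markers summed to 654 to 708 CPM with vehicle and 343 to 407 CPM with tau fibrils (4 of 6 lower), and the 6 neuron markers to 125 to 159 CPM and 64.3 to 80.3 CPM (4 of 6 lower). With each library scaled to its microglia markers instead, an alternative chosen after seeing the data, all 6 members were still called higher, with log2 fold changes of 1.47 for Cybb, 1.41 for Rac2, 0.85 for Sod2, 0.84 for Ncf4, 0.63 for Ncf1 and 0.54 for Cyba. That scaling set the median of all genes tested to -1.03 and called 8559 of the 10408 genes lower. The markers moved unevenly, so it does not hold microglia content fixed. C1qa was at 993 to 1689 CPM with vehicle and 3560 to 4518 CPM with tau fibrils. Trem2 was at 448 to 568 CPM and 436 to 558 CPM.

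**Figure D2:**
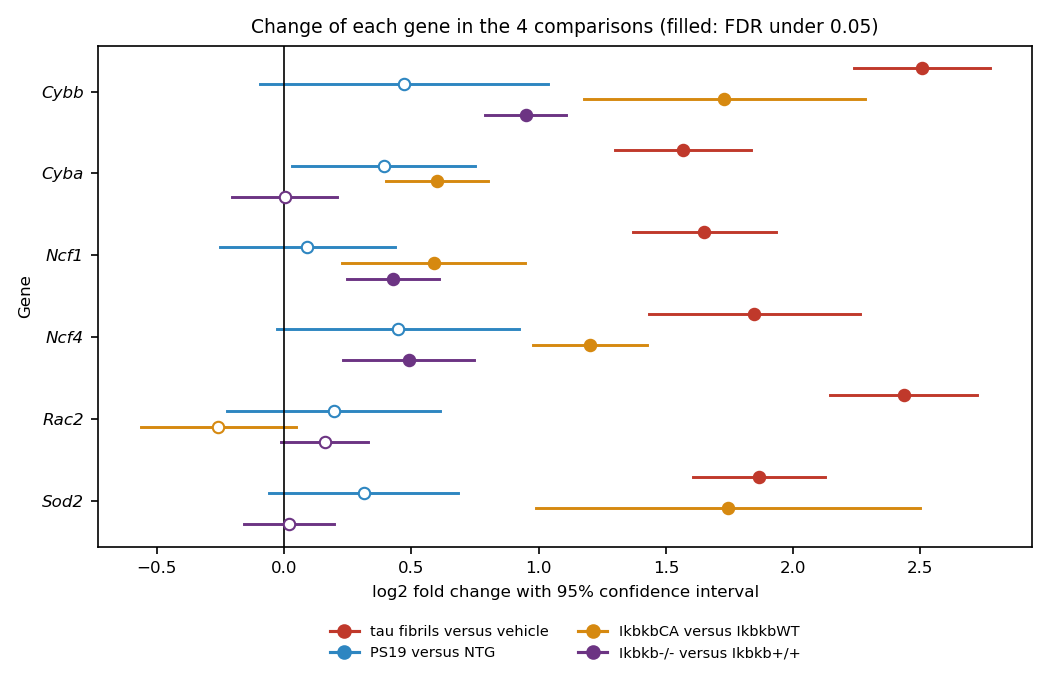
Log2 fold change of each member in the 4 comparisons, with 95% intervals from edgeR; filled points have an FDR under 0.05. The 6 members lie between 1.57 and 2.51 for tau fibrils, between 0.09 and 0.47 for PS19, and are spread for IkbkbCA (-0.26 to 1.74) and Ikbkb-/- (0.00 to 0.95).

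In microglia isolated from PS19 mice, none of the 6 members passed the test, although every fold change was above 0. Only 0.0707% of the 11323 genes tested rose in PS19, which is 8 genes, and none fell. At an unadjusted p under 0.05 there were 977 genes, and 1 of the 6 members, Cyba, was among them, while DESeq2 called 79 genes higher and 19 lower, limma-voom 4 and 0, and neither called a member. Without the filter on low counts, edgeR called 127 genes higher and 39 lower, again with no member. The paper's own analysis reports more upregulated genes in PS19 microglia at the same FDR than any of these fits. The median log2 fold change of the members was 0.35, against 0.00 over all genes tested.

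Cyba was at 448, 436, 526.5 and 500.5 CPM in the NTG libraries and at 597.5, 701, 632 and 689 CPM in the PS19 libraries. No library overlapped, and neither did any for Sod2, which was at 60.6, 68.5, 53.4 and 59.4 CPM in NTG and at 77.5, 69.98, 81.1 and 85.2 CPM in PS19. Of all genes tested, 4.54% had every PS19 library above every NTG library. The log2 fold change of Cyba was 0.39 (95% interval 0.03 to 0.75, edgeR FDR 0.540) and that of Sod2 0.31 (-0.06 to 0.68, edgeR FDR 0.645).

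Cybb was at 113, 78.8, 84.4 and 78.2 CPM in NTG and at 189, 128, 127 and 71.7 CPM in PS19. PS19 held both the highest and the lowest library, so the groups overlapped, and the log2 fold change was 0.47 (95% interval -0.10 to 1.04, edgeR FDR 0.648). Without PS19 replicate 1, the highest library, it was 0.23 (edgeR FDR 0.831). Ncf4 was at 39.4, 64.5, 51.1 and 62.8 CPM in NTG and at 55.8, 85.2, 89.0 and 80.7 CPM in PS19, with 3 PS19 libraries above all NTG libraries (log2 fold change 0.45, 95% interval -0.03 to 0.92, edgeR FDR 0.607). Ncf1 was at 429.9, 418, 417.5 and 440.0 CPM in NTG and at 480.0, 491, 435 and 496 CPM in PS19, with 1 PS19 library inside the NTG range (log2 fold change 0.09, 95% interval -0.25 to 0.44, edgeR FDR 0.909). Rac2 was at 98.4, 129, 159 and 157.5 CPM in NTG and at 159.9, 174.5, 142 and 175 CPM in PS19, where replicate 3 fell among the NTG libraries (log2 fold change 0.19, 95% interval -0.22 to 0.61, edgeR FDR 0.819). The upper limits of these intervals still allow a rise of about 1 log2 unit in Cybb and Ncf4.

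Markers of granulocytes and monocytes, which use the same oxidase, were read in these isolates. The 12 granulocyte markers summed to 1637 to 2225 CPM in NTG and to 476, 1773, 2716 and 1027 CPM in PS19 replicates 1 to 4, and 5 monocyte markers to 59.6 to 89.6 CPM and 21.9 to 79.0 CPM. S100a8, a calprotectin subunit of neutrophils, was at 578 to 912 CPM in NTG and at 164 to 1012 CPM in PS19. The PS19 library with the most Cybb, replicate 1, held the least granulocyte RNA and the most Xist, the RNA of the inactive X chromosome (177 CPM, against 1.80 to 31.1 CPM in the other 7 libraries), although all mice were labelled male. The same library held the most RNA of border-associated macrophage markers, at 838 CPM against 294 to 541 CPM in the other 7. Its microglia markers had the lowest sum, at 39666 CPM. The PS19 libraries also split along the first principal component, with replicates 1 and 2 at -17.4 and -32.3 and replicates 3 and 4 at 34.4 and 34.3. The NTG libraries lay between, from -14.5 to 6.92. Xist was at 31.1, 4.31 and 1.80 CPM in PS19 replicates 2 to 4. Astrocyte markers summed to 868, 1026, 1974 and 1549 CPM in PS19 replicates 1 to 4 and to 653 to 993 CPM in NTG. The part of these differences in the member values was not tested.

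The difference between the effect of tau fibrils on cultured cells and that of the PS19 transgene on isolated cells passed for all 6 members when tested over the 16 libraries with TMM scaling, but for 1 with libraries scaled to their microglia markers. The tau fibril effect was larger by 2.15 log2 units for Rac2 (edgeR FDR 1.4e-06), 1.95 for Cybb (0.000114), 1.47 for Ncf1 (5.3e-05), 1.47 for Sod2 (3.3e-05), 1.31 for Ncf4 (0.0128) and 1.09 for Cyba (0.00110). Of the 11852 genes tested, 4.42% had a larger tau fibril effect at an FDR under 0.05. With marker scaling, Rac2 still passed (1.12, edgeR FDR 0.00216), while Cybb (0.86, edgeR FDR 0.0566), Sod2 (0.45, edgeR FDR 0.108), Ncf1 (0.44, edgeR FDR 0.121), Ncf4 (0.31, edgeR FDR 0.390) and Cyba (0.07, edgeR FDR 0.801) did not. Marker scaling set the median of all genes tested in this contrast to -1.12. Under it 6457 of the 11852 genes had a smaller tau fibril effect at an FDR under 0.05, and 226 a larger one. The contrast sets newborn cultures given fibrils against adult cells, so age, isolation and exposure cannot be told apart.

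With constitutively active IKKβ, 5 of the 6 measured members rose, from 1.503-fold for Ncf1 to 3.35-fold for Sod2, and Rac2 did not rise. Of the 11697 genes tested, 7.31% rose and 7.16% fell, and 6.51% had every IkbkbCA library above every IkbkbWT library, as Cybb, Cyba, Ncf4 and Sod2 did. The median log2 fold change of the members was 0.90, against -0.05 over all genes tested.

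Cybb was at 383, 373, 436, 272 and 248 CPM in IkbkbWT and at 1008, 982, 2011, 930 and 788 CPM in IkbkbCA. Every IkbkbCA library was above every IkbkbWT library, with replicate 3 far above the next, and the log2 fold change was 1.73 ± 0.25 (SE, n = 5 and 5; edgeR FDR 0.000721). Cyba was at 442, 461, 425, 431 and 387 CPM in IkbkbWT and at 697, 715, 729.8, 563 and 574 CPM in IkbkbCA. Its groups did not overlap, and its log2 fold change was 0.60 ± 0.09 (SE; edgeR FDR 0.000957), 1.52-fold.

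Ncf4 was at 41.5, 34.3, 32.9, 28.2 and 31.3 CPM in IkbkbWT and at 81.5, 82.1, 84.7, 69.8 and 71.3 CPM in IkbkbCA. No library overlapped, with a log2 fold change of 1.202 ± 0.10 (SE; edgeR FDR 2.0e-05). Ncf1 was at 515, 513, 360.0, 364 and 333 CPM in IkbkbWT and at 778.5, 764, 481.5, 589.7 and 539 CPM in IkbkbCA. IkbkbCA replicate 3 fell below 2 IkbkbWT libraries, and the log2 fold change of 0.59 ± 0.16 (SE) passed with an edgeR FDR of 0.0330. The Ncf1 call was lost when any one of 6 of the 10 libraries was left out (edgeR FDR 0.0564 to 0.0881).

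Rac2 was at 237, 222, 161, 176 and 167 CPM in IkbkbWT and at 186, 195, 125, 159 and 145 CPM in IkbkbCA. The groups overlapped, with 3 IkbkbCA libraries below all IkbkbWT libraries, and the log2 fold change of -0.26 ± 0.14 (SE) did not pass (edgeR FDR 0.264). Sod2 was at 90.0, 74.1, 80.7, 75.6 and 85.6 CPM in IkbkbWT and at 183, 179.7, 633, 186 and 190.0 CPM in IkbkbCA. The other 4 IkbkbCA libraries lay close together above IkbkbWT, and replicate 3 stood far above them. The log2 fold change of Sod2 was 1.74 ± 0.34 (SE; edgeR FDR 0.00513), and without IkbkbCA replicate 3 it was 1.199 (edgeR FDR 3.8e-06). For Cybb the value without that library was 1.45 (edgeR FDR 0.000200).

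The 10 libraries of this experiment fell into 3 sets along their second principal component, each with both genotypes, namely replicates 1 and 2, replicate 3, and replicates 4 and 5. The sets were read from the data, since no label names them. Oligodendrocyte markers summed to 4721 CPM in IkbkbWT and 1672 CPM in IkbkbCA replicate 3, against 237 to 582 CPM in the other libraries. Neuron markers summed to 94.0 to 116 CPM in replicates 4 and 5, and 5.51 to 22.3 CPM in the rest. Xist was at 1.701 to 2.82 CPM in IkbkbWT replicates 1 to 3, 469 and 485 CPM in replicates 4 and 5, and 149.6 to 279 CPM in IkbkbCA. The part of these differences in the ratios was not tested. Within the sets, Sod2 was 2.21, 7.85 and 2.33 times as high in IkbkbCA as in IkbkbWT, and Cybb 2.63, 4.61 and 3.30 times. For Ncf1 the ratios were 1.4997, 1.34 and 1.62, and for Ncf4 2.16, 2.57 and 2.37. For Cyba they were 1.56, 1.72 and 1.39. Rac2 was lower in IkbkbCA in every set, at 0.8294, 0.776 and 0.886 times the IkbkbWT level. With the sets as a covariate, an alternative chosen after seeing the data, all 6 members passed, Rac2 with a fall of 0.26 on the log2 scale (edgeR FDR 0.00918). In that fit 1286 of the 11697 genes tested rose and 1560 fell. The sets were read from the same counts, so this fit is no independent check of the calls.

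**Figure D3:**
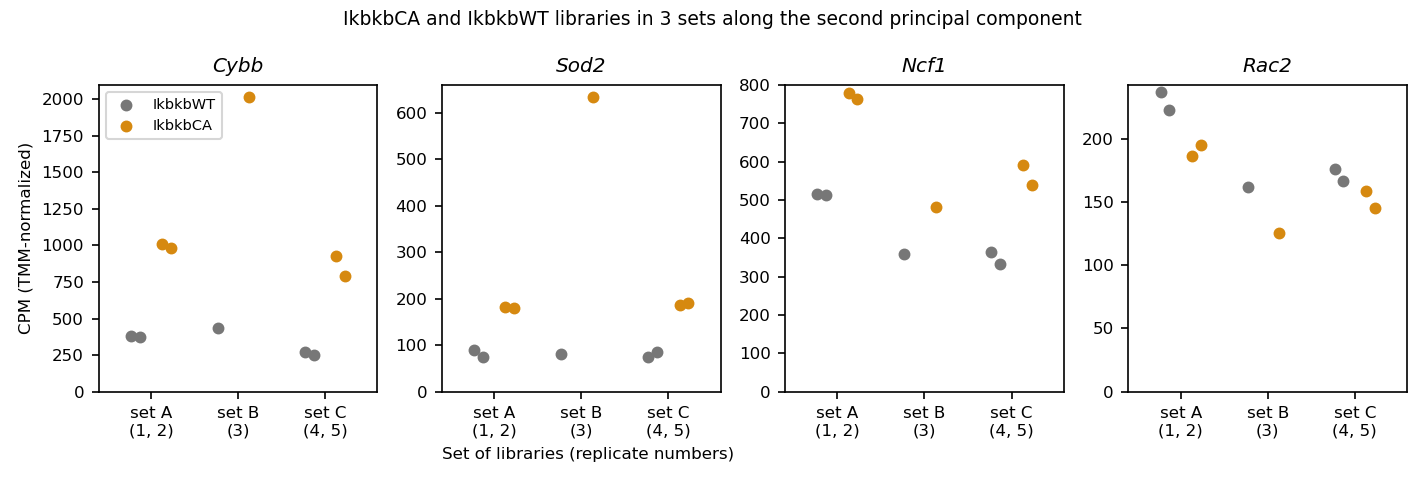
Cybb, Sod2, Ncf1 and Rac2 in CPM in the IkbkbWT and IkbkbCA libraries, drawn separately for the 3 sets of libraries. In each set Cybb, Sod2 and Ncf1 are higher and Rac2 is lower in IkbkbCA, and replicate 3 carries the 7.85-fold Sod2 difference.

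The microglia markers summed to 17037 to 23099 CPM in IkbkbWT and 20787 to 30944 CPM in IkbkbCA (4 of 12 higher, 1 lower), and the 6 markers of border-associated macrophages to 1393 to 1966 CPM and 489 to 1034 CPM (4 of 5 tested lower). Scaled to the microglia markers, Cybb (1.395, edgeR FDR 0.00549), Sod2 (1.45, edgeR FDR 0.0201) and Ncf4 (0.81, edgeR FDR 0.00181) were still higher, Cyba (0.20, edgeR FDR 0.256) and Ncf1 (0.17, edgeR FDR 0.143) did not pass, and Rac2 was lower (-0.68, edgeR FDR 0.000152). That scaling set the median of all genes tested to -0.46, with 356 of the 11697 genes called higher and 4210 lower. Markers in the microglia sum moved in both directions. C1qa was at 5012 to 7238 CPM in IkbkbWT and 8012 to 12694 CPM in IkbkbCA, while Cx3cr1 fell by 0.56 (edgeR FDR 0.00153). The scaling therefore does not hold microglia content fixed. Granulocyte markers summed to 15.3 to 21.4 CPM in IkbkbWT and to 29.0 to 97.4 CPM in IkbkbCA, with 1 of 3 tested higher and none lower. S100a8 went from 3.28 to 7.14 CPM up to 13.9 to 76.5 CPM. S100a9 stayed low, at 1.99 to 3.74 CPM and 1.96 to 4.08 CPM. Csf3r was at 4.31 to 8.31 CPM in IkbkbWT and 6.72 to 13.2 CPM in IkbkbCA, and Mmp8 at 0.567 to 3.28 CPM and 0.185 to 1.16 CPM. Granulocyte content was not tested. Xist ran from 1.701 to 485 CPM in IkbkbWT and from 149.6 to 279 CPM in IkbkbCA, and with the Y-linked Ddx3y as a covariate the same 5 members passed. The part of these other differences in the member values was not tested.

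With Ikbkb deleted, 3 of the 6 measured members were higher. Cybb, Ncf1 and Ncf4 rose, and Cyba, Rac2 and Sod2 did not pass the test. Of the 11242 genes tested, 7.64% rose and 6.96% fell, and 8.66% had every Ikbkb-/- library above every Ikbkb+/+ library, as these 3 members did. The median log2 fold change of the members was 0.29, against 0.00 over all genes tested.

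Cybb was at 385, 363, 398 and 426 CPM in Ikbkb+/+ and at 763, 764, 753 and 731 CPM in Ikbkb-/-. The groups were far apart and the Ikbkb-/- libraries nearly equal, for a rise of 1.93-fold, a log2 fold change of 0.95 ± 0.08 (SE, n = 4 and 4; edgeR FDR 5.0e-08). Ncf1 was at 399.6, 454, 456 and 412 CPM in Ikbkb+/+ and at 498, 552, 591 and 653 CPM in Ikbkb-/-. No library overlapped, and the log2 fold change was 0.43 ± 0.09 (SE; edgeR FDR 0.00187). Ncf4 was at 32.2, 38.9, 27.4 and 27.9 CPM in Ikbkb+/+ and at 40.4, 43.3, 43.0 and 46.5 CPM in Ikbkb-/-. The groups came close without overlapping, and the log2 fold change was 0.49 ± 0.12 (SE; edgeR FDR 0.0106).

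Cyba was at 449.7, 510.5, 397 and 374 CPM in Ikbkb+/+ and at 458, 432, 398.5 and 431 CPM in Ikbkb-/-. The Ikbkb-/- libraries lay inside the Ikbkb+/+ range, with a log2 fold change of 0.00 (95% interval -0.20 to 0.21, edgeR FDR 0.991). Sod2 was at 76.3, 76.1, 75.7 and 70.9 CPM in Ikbkb+/+ and at 76.9, 74.7, 73.3 and 75.5 CPM in Ikbkb-/-. The groups overlapped, and the interval of the log2 fold change, -0.16 to 0.19 around 0.02, was narrow (edgeR FDR 0.914). Rac2 was at 199.8, 202, 194 and 199 CPM in Ikbkb+/+ and at 218, 197, 218 and 246 CPM in Ikbkb-/-, where replicate 2 fell among the Ikbkb+/+ libraries (log2 fold change 0.16, 95% interval -0.01 to 0.33, edgeR FDR 0.220).

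Sex and cell make-up moved with this genotype. Xist was at 243 to 400.5 CPM in Ikbkb+/+ and at 5.65 to 10.4 CPM in Ikbkb-/-, and Ddx3y at 35.1 to 69.4 CPM and 155 to 173 CPM, so the sex of the pups and the deletion cannot be told apart, also for the X-linked Cybb. With Ddx3y as a covariate, Cybb passed (1.15, edgeR FDR 0.00674), whereas Ncf1 (0.50, edgeR FDR 0.401) and Ncf4 (-0.25, edgeR FDR 0.798) did not. The Ddx3y ranges of the genotypes do not overlap, so that fit cannot separate sex from the deletion either. Border-associated macrophage markers summed to 1510 to 1849 CPM in Ikbkb+/+ and 422 to 741 CPM in Ikbkb-/- (5 of 5 tested lower), and oligodendrocyte markers to 199 to 301.4 CPM and 377 to 451 CPM (4 of 6 higher). The 12 granulocyte markers summed to 437, 110.0, 52.4 and 18.2 CPM in Ikbkb+/+ replicates 1 to 4 and to 17.8 to 23.9 CPM in Ikbkb-/- (2 of 4 tested lower). The part of these cells in the member values was not tested. The microglia markers summed to 20641 to 25130 CPM and 23307 to 25622 CPM, and with libraries scaled to them Cybb passed (0.83, edgeR FDR 2.5e-06) and Ncf1 (0.31, edgeR FDR 0.0642) and Ncf4 (0.37, edgeR FDR 0.0747) did not. Cx3cr1 is among these markers and fell by 1.16 (edgeR FDR 1.6e-06), so this scaling does not hold microglia content fixed either. It put the median of all genes tested at -0.12.

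Active IKKβ and loss of IKKβ were set against each other over their 18 libraries, which share no control. The IkbkbCA effect was larger for Sod2 by 1.74 log2 units (95% interval 0.87 to 2.62, edgeR FDR 0.0245), for Ncf4 by 0.74 (0.39 to 1.09, edgeR FDR 0.0168) and for Cyba by 0.62 (0.31 to 0.92, edgeR FDR 0.0233). Of the 12352 genes tested, 2.23% had a larger IkbkbCA effect. Cybb, which rose in both, differed by 0.80 (95% interval 0.17 to 1.42, edgeR FDR 0.192), Ncf1 by 0.18 (-0.27 to 0.62, edgeR FDR 0.760) and Rac2 by -0.40 (-0.78 to -0.03, edgeR FDR 0.286), so a difference was not shown for these 3. Leaving out Ikbkb-/- replicate 3 cut the 3 calls to 1, with Cyba and Sod2 at edgeR FDR 0.0542 and 0.0511. With libraries scaled to their microglia markers none of the 3 passed, at 1.55 for Sod2 (edgeR FDR 0.0702), 0.44 for Ncf4 (edgeR FDR 0.173) and 0.30 for Cyba (edgeR FDR 0.312), and Rac2 passed at -0.72 (edgeR FDR 0.00133). That scaling put the median of all genes tested at -0.35, with 853 of the 12352 genes called lower and 141 higher.

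Tau fibrils and active IKKβ differed most for Rac2. Over their 18 libraries the tau fibril effect on Rac2 was larger by 2.62 log2 units (95% interval 2.19 to 3.04, edgeR FDR 5.0e-08), that on Ncf1 by 0.99 (edgeR FDR 0.0101) and that on Cyba by 0.89 (edgeR FDR 0.000777). Of the 12841 genes tested, 5.86% had a larger tau fibril effect. The Rac2 controls differed as well, at 40.8 to 46.2 CPM in vehicle and 161 to 237 CPM in IkbkbWT. The tau fibril libraries, at 190.0 to 259 CPM, overlapped IkbkbWT. The 2 experiments were made separately, so differences in culture and treatment cannot be told apart from those of tau fibrils and active IKKβ. Sod2 differed by 0.05 (95% interval -0.79 to 0.89, edgeR FDR 0.962), Cybb by 0.70 (0.07 to 1.33, edgeR FDR 0.157) and Ncf4 by 0.57 (0.07 to 1.07, edgeR FDR 0.145). Without IkbkbCA replicate 3, Sod2 (0.67, edgeR FDR 0.00176) and Cybb (1.05, edgeR FDR 0.00173) also passed. With libraries scaled to their microglia markers, Rac2 still passed (2.08, edgeR FDR 1.4e-07), Ncf1 (0.46, edgeR FDR 0.0533) and Cyba (0.34, edgeR FDR 0.207) did not, and Sod2 turned to -0.60 (edgeR FDR 0.387). That scaling put the median of all genes tested at -0.59.

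**Figure D4:**
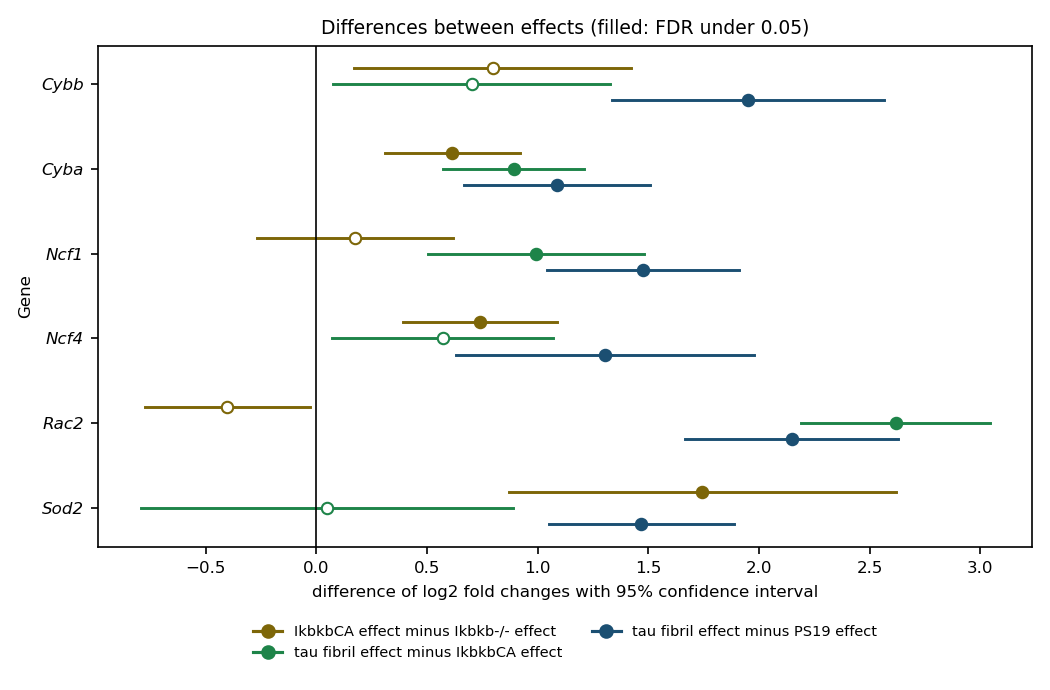
Differences between effects in log2 units with 95% intervals from edgeR, for IkbkbCA minus Ikbkb-/-, tau fibrils minus IkbkbCA and tau fibrils minus PS19; filled points have an FDR under 0.05. Rac2 has the largest tau fibril minus IkbkbCA difference (2.62), and Sod2 the largest IkbkbCA minus Ikbkb-/- difference (1.74). These values use TMM scaling, and with scaling to microglia markers the tau fibril minus PS19 difference passed for Rac2 alone. That scaling set the median of all genes tested in this contrast to -1.12.

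Nos2 was all but absent. It had 8 reads in the 34 libraries: 3 in NTG replicate 3, 1 in PS19 replicate 3, 3 in IkbkbCA replicate 3 and 1 in IkbkbCA replicate 4. None was read in the 4 tau fibril, 4 vehicle, 5 IkbkbWT and 8 Ikbkb libraries, and the highest level was 0.631 CPM. It passed the filter on low counts in no comparison, so edgeR did not test it, and the two-sided exact permutation p was 1 for tau fibrils, PS19 and Ikbkb-/- and 0.444 for IkbkbCA. With nearly every library at 0, none of these tests could have passed: where every library is at 0 only a p of 1 is possible, and with reads in 2 of 10 libraries 0.444 is the smallest possible p. A count of 0 allows up to 3 reads, which is 0.340 to 1.71 CPM depending on depth and covers counting error only, so Nos2 RNA up to that level is compatible with no read in a library.

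The other genes of the same pathways were taken from 4 lists. Of all genes tested, 14.5% rose and 15.4% fell with tau fibrils. In IkbkbCA these shares were 7.31% and 7.16%, and in Ikbkb-/- 7.64% and 6.96%. Of 16 oxidase partners, 8 were tested with tau fibrils, 6 rose and none fell (median log2 fold change 0.72). Arhgdib, a GDP dissociation inhibitor that binds Rac2, was at 106 to 120 CPM with vehicle and 453 to 651 CPM with tau fibrils (log2 fold change 2.27, edgeR FDR 1.9e-13). Vav1, an exchange factor that loads Rac with GTP, went from 79.3 to 108 CPM up to 115 to 259 CPM (1.19, edgeR FDR 5.9e-06). Cybc1, a chaperone of the gp91phox and p22phox pair, rose by 0.70 (edgeR FDR 0.000683), and Rac1 did not pass (0.29, edgeR FDR 0.0714). In IkbkbCA 3 of 8 oxidase partners rose and none fell (median 0.27): Hvcn1, the proton channel that balances the oxidase's charge, by 0.64 (edgeR FDR 0.0133), Cybc1 by 0.33 (edgeR FDR 0.0324) and Arhgdib by 0.32 (edgeR FDR 0.0385). With libraries scaled to their microglia markers, Arhgdib still rose with tau fibrils (1.25, edgeR FDR 3.5e-08), Vav1 (0.16, edgeR FDR 0.385) and Cybc1 (-0.33, edgeR FDR 0.0804) did not pass, Rac1 fell by 0.74 (edgeR FDR 5.5e-05), and the 3 IkbkbCA calls were lost. Under that scaling the median of all genes tested was -1.03 with tau fibrils and -0.46 in IkbkbCA. None of 9 passed in PS19 (median 0.03), and none of 8 in Ikbkb-/- (median 0.00). Other oxidases were scarcely read: Nox1, Nox3 and the activator Noxa1 had no read in any library, Nox4 at most 5 reads, Duox1 at most 2, Duox2 at most 4 and the granulocyte peroxidase Mpo at most 5.

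Of 18 genes that remove superoxide and peroxide, 17 were tested in each comparison. With tau fibrils 3 rose and 1 fell (median 0.15), in IkbkbCA 4 rose and none fell (median 0.09), in Ikbkb-/- 2 rose and 2 fell (median -0.07), and in PS19 none passed (median 0.27). Over all genes tested, 14.5% rose and 15.4% fell with tau fibrils. The shares were 7.31% and 7.16% in IkbkbCA and 7.64% and 6.96% in Ikbkb-/-. Sod1, the cytosolic dismutase, did not pass in any of the 4 comparisons, although it did in IkbkbCA with the 3 sets of libraries as a covariate (0.24, edgeR FDR 0.0146), and had a log2 fold change of 0.18 with tau fibrils (edgeR FDR 0.280), where Sod2 rose by 1.87. The list was led by Glrx, a glutaredoxin, which rose by 2.85 with tau fibrils (edgeR FDR 9.0e-15) and by 1.63 in IkbkbCA (edgeR FDR 0.000327). Prdx5, a peroxiredoxin, rose by 2.06 with tau fibrils (edgeR FDR 3.2e-12), by 1.19 in IkbkbCA (edgeR FDR 0.000176) and by 0.43 in Ikbkb-/- (edgeR FDR 0.00103). Gpx1, the cytosolic glutathione peroxidase, was at 634 to 821 CPM in IkbkbWT and at 1378 to 1696 CPM in IkbkbCA (1.13, edgeR FDR 1.7e-05) and rose by 0.74 in Ikbkb-/- (edgeR FDR 0.00374), but with tau fibrils it was at 0.29 (edgeR FDR 0.112), and the tau fibril effect was smaller than that of IkbkbCA, with a difference of -0.92 (edgeR FDR 0.00133). Among those that fell, Gpx3, the secreted glutathione peroxidase, fell by 0.83 with tau fibrils (edgeR FDR 0.00340), and Txnrd1, the cytosolic thioredoxin reductase, fell by 0.57 in Ikbkb-/- (edgeR FDR 0.000876). With libraries scaled to their microglia markers, the calls named here for Glrx, Prdx5, Gpx1, Gpx3 and Txnrd1 held, and with tau fibrils Sod1 (-0.84, edgeR FDR 3.4e-06) and Gpx1 (-0.72, edgeR FDR 4.4e-05) fell. With tau fibrils that scaling called 8559 of 10408 genes lower and put the median of all genes tested at -1.03, below both values.

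Genes of glutathione synthesis and of NRF2, the factor that drives antioxidant genes, formed the third list. Of 14, 3 of 13 tested rose with tau fibrils (median 0.11), 2 rose and 1 fell of 13 in IkbkbCA (median 0.13), 1 rose and 2 fell of 12 in Ikbkb-/- (median -0.13), and none of 13 passed in PS19 (median 0.12). Beside these counts, 14.5% of all genes tested rose with tau fibrils. In IkbkbCA 7.31% rose and 7.16% fell, and in Ikbkb-/- 7.64% rose and 6.96% fell. Nfe2l2, which encodes NRF2, was at 294 to 340 CPM in IkbkbWT and at 442 to 593 CPM in IkbkbCA (0.76, edgeR FDR 0.000275), and it rose by 0.39 with tau fibrils (edgeR FDR 0.0252). Neither held with libraries scaled to their microglia markers, where Nfe2l2 did not pass in IkbkbCA (0.32, edgeR FDR 0.0659) and turned lower with tau fibrils (-0.63, edgeR FDR 0.000566). That scaling put the median of all genes tested at -0.46 in IkbkbCA and at -1.03 with tau fibrils. Hmox1, the haem oxygenase and a target of NRF2, did not pass with tau fibrils (-0.12, edgeR FDR 0.582) or in IkbkbCA (0.64, edgeR FDR 0.0983), where replicate 3 was the highest at 748 CPM. With the 3 sets of libraries as a covariate it passed in IkbkbCA (0.56, edgeR FDR 0.0337), and with marker scaling it was lower with tau fibrils (-1.16, edgeR FDR 1.1e-06). In Ikbkb-/- Hmox1 fell by 0.47 (edgeR FDR 0.00161), from 245 to 296 CPM down to 174 to 215 CPM.

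Of 13 genes of arginine and nitric oxide metabolism, 2 rose and 2 fell of 9 with tau fibrils (median 0.09), 2 of 10 rose in IkbkbCA (median 0.09), 1 of 8 rose in Ikbkb-/- (median -0.22), and none of 8 passed in PS19 (median 0.36). Among all genes tested, 14.5% rose and 15.4% fell with tau fibrils, 7.31% rose in IkbkbCA and 7.64% in Ikbkb-/-. Although Nos2 was at or near 0, Gch1, which makes the tetrahydrobiopterin cofactor of nitric oxide synthases, was at 9.15 to 18.3 CPM with vehicle and 28.8 to 43.4 CPM with tau fibrils (1.41, edgeR FDR 1.9e-05). Gch1 was also at 13.99 to 21.5 CPM in IkbkbWT and 45.5 to 67.6 CPM in IkbkbCA (1.54, edgeR FDR 2.6e-05), and it rose by 0.51 in Ikbkb-/- (edgeR FDR 0.0330). With libraries scaled to their microglia markers, Gch1 passed in IkbkbCA (1.16, edgeR FDR 0.00230) and not with tau fibrils (0.43, edgeR FDR 0.107) or in Ikbkb-/- (0.38, edgeR FDR 0.160). The medians of all genes tested were then -0.46, -1.03 and -0.12. Ass1, which recycles citrulline to arginine, was at 0 to 1.51 CPM in IkbkbWT and at 7.98 to 25.0 CPM in IkbkbCA (edgeR log2 fold change 4.80, which depends on the prior count, FDR 0.000140). The tau fibril effect on Ass1, at 0.97 (edgeR FDR 0.0362) and at -0.05 with marker scaling (edgeR FDR 0.900), was smaller than that of IkbkbCA, with a difference of -3.90 log2 units (edgeR FDR 0.000790).

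**Figure D5:**
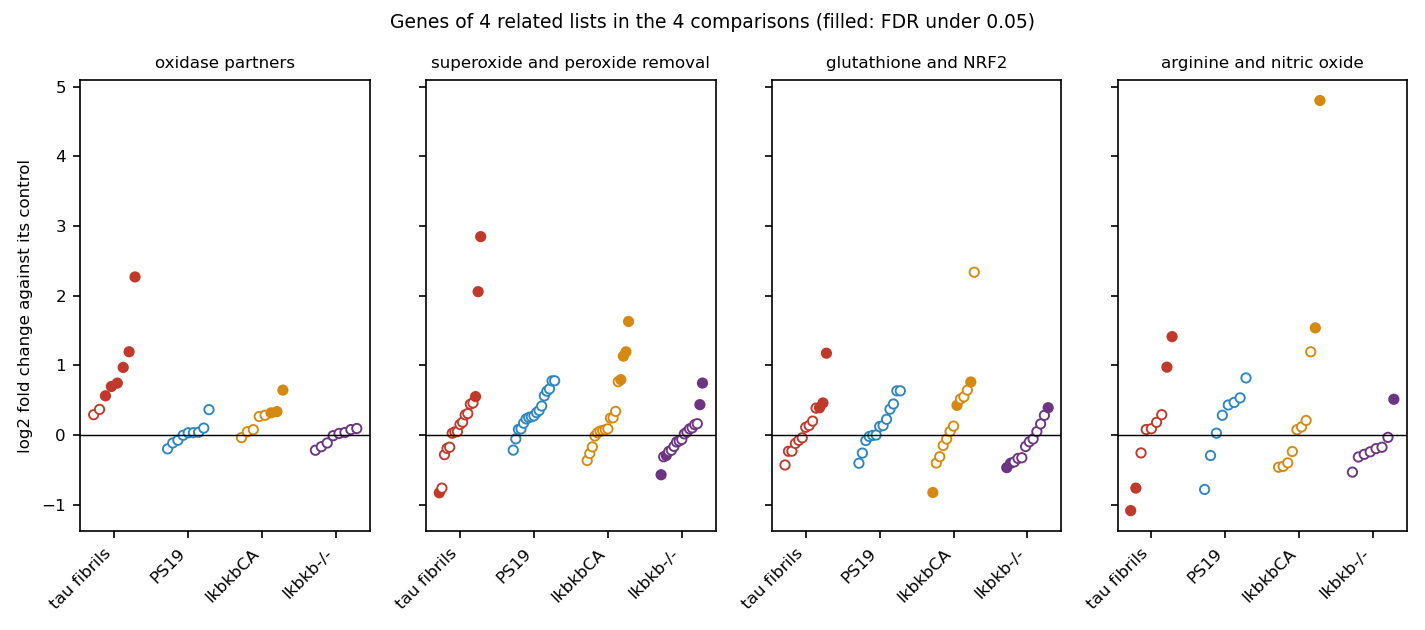
Log2 fold changes of the tested genes of 4 pathway lists in the 4 comparisons, 1 point per gene, with filled points at an edgeR FDR under 0.05. The oxidase partners have a median of 0.72 with tau fibrils and of 0.00 in Ikbkb-/-, and no list gene is filled in PS19.

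Across the 34 libraries, with the mean of each experiment subtracted from log2 CPM, the members varied together to different degrees. Pearson correlations between the 6 members other than Nos2 ran from 0.51 (Rac2 with Sod2) to 0.90 (Cyba with Ncf4), with Cybb at 0.89 with Sod2 and 0.61 with Rac2. These are descriptions over libraries that share treatments and depth. Among the 8405 genes with a mean of at least 10 CPM, the genes most like Cybb were Glipr1 (0.94), Prdx5 (0.94) and H2-K1 (0.94), and those most like Sod2 were Saa3 (0.94), Glrx (0.94) and Marco (0.92). For Ncf1 they were Aif1 (0.95), C1qa (0.94) and Uba7 (0.94), and for Rac2 Pld4 (0.93), Fcer1g (0.93) and Arhgdib (0.93). For Cyba they were Ptpn6, Tgfbi and Rassf4 (each 0.93), and for Ncf4 Tor3a (0.93), Cxcl16 (0.91) and Il2rg (0.90).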

How the data were processed

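The authors deposited whole-number read counts per gene for each library. Libraries were made with a QuantSeq 3′ kit and mapped to GRCm38 with GENCODE annotation on the kit maker's online platform. The study's methods also name RSEM, but the tables hold whole numbers and lines of uncounted reads. Reads outside genes (12.4% to 38.3% of a library) were left out of totals and tests. Identifiers were matched to GENCODE M21 symbols (47224 of 47643). No other unit was used. Among 56 pairs of replicates, none held identical counts.

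Counts were analysed with edgeR 4.0.16 in R 4.3.3: filterByExpr (minimum count 10, total 15), TMM scaling, a quasi-likelihood fit of only the groups compared, and Benjamini-Hochberg FDR over all genes tested. Differences between effects were contrasts in a fit of both experiments. Standard errors and 95% intervals come from the F statistic. Printed CPM values were scaled over all 34 libraries, whereas fold changes come from each fit. Nos2 was compared by exact permutation. Alternatives were DESeq2 1.42.0, limma 3.58.1 (voom), other scalings, no filter, covariates and leaving out each library. Scaling to microglia markers, in all 7 contrasts, and the 3 sets of libraries were added after seeing the data. The marker scaling uses summed marker counts, and some of these markers moved in the comparisons, so it does not hold microglia content fixed. The scripts were tested on simulated counts.

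The members and gene lists were chosen with earlier results of these data known. Named genes were the members, examples from the 4 lists, the 2 highest and 2 lowest called genes of each list, Ikbkb and Cx3cr1, and the 3 genes most correlated with each member. Cell type markers, Xist and Ddx3y are named as checks of the libraries, and Saa3 and the other leading genes only through the correlation. The 24 cortex samples were not analysed here.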

Additional observations from a re-analysis of the deposited data

Results flagged for a closer look

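In 3 of 48 pairs of a member and a group, 1 library stood apart from the rest of its group by Dixon's test, which chance gives in about 1 of 20 groups. IkbkbCA replicate 3 was at 2011 CPM for Cybb, where the nearest other library was at 1008 CPM and the farthest at 788 CPM, and at 633 CPM for Sod2, where the nearest was at 190.0 CPM. Its gap was 0.820 of the group's range for Cybb and 0.977 for Sod2. Ikbkb+/+ replicate 4 was at 70.9 CPM for Sod2, with the nearest at 75.7 CPM, a gap of 0.888 of a range of few CPM. IkbkbCA replicate 3 also had the most Hmox1 of its group (748 CPM), and the part of this library in each result is given by the values without it.

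The effects of 2 contrasts differed by a test of the difference with TMM scaling for several members. IkbkbCA exceeded Ikbkb-/- for Sod2 (1.74 log2 units), Ncf4 (0.74) and Cyba (0.62). Tau fibrils exceeded IkbkbCA for Rac2 (2.62), Ncf1 (0.99) and Cyba (0.89). Tau fibrils exceeded PS19 for Rac2 (2.15), Cybb (1.95), Ncf1 (1.47), Sod2 (1.47), Ncf4 (1.31) and Cyba (1.09). With libraries scaled to their microglia markers, the differences of tau fibrils from IkbkbCA and from PS19 still passed for Rac2 alone, and none of the 3 between IkbkbCA and Ikbkb-/- passed. That scaling moved the medians of all genes tested in these contrasts to -0.59, -1.12 and -0.35.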

How the results depend on the processing

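All 6 members were called for tau fibrils, and none for PS19, in every alternative. For Ikbkb-/- the count fell from 3 to 1 with Ddx3y as a covariate and to 1 with scaling to microglia markers, which also cut the members called to 1 for tau fibrils against PS19 (from 6), 1 for tau fibrils against IkbkbCA (from 3) and 1, Rac2 on the other side, for IkbkbCA against Ikbkb-/- (from 3). Under that scaling Ncf1 for IkbkbCA against Ikbkb-/- was at -0.14 and Sod2 for tau fibrils against IkbkbCA at -0.60. It moved the median of all genes tested to -1.12 for tau fibrils against PS19. For tau fibrils against IkbkbCA this median was -0.59, and for IkbkbCA against Ikbkb-/- it was -0.35. The Ddx3y fit for Ikbkb-/- cannot separate sex from the deletion, because Ddx3y does not overlap between these genotypes. Leaving out 1 library gave 6 members for tau fibrils, 0 for PS19, 4 to 5 for IkbkbCA, 3 for Ikbkb-/-, 1 to 3 for IkbkbCA against Ikbkb-/- (1 without Ikbkb-/- replicate 3), 3 to 5 for tau fibrils against IkbkbCA (5 without IkbkbCA replicate 3) and 6 for tau fibrils against PS19. Values that were near 0 or lost their call changed sign: Rac2 in PS19 with age as a covariate (-0.013), and in Ikbkb-/- Cyba with total-count scaling (-0.026), no filter (-0.016), Ddx3y (-0.70) and marker scaling (-0.10), Ncf4 with Ddx3y (-0.25), and Sod2 with total-count scaling (-0.012), Ddx3y (-0.18) and marker scaling (-0.10). Without 1 library, Cyba in Ikbkb-/- ran from -0.071 to 0.087, Sod2 in Ikbkb-/- from -0.0165 to 0.034, and Sod2 for tau fibrils against IkbkbCA from -0.071 to 0.67. Ncf1 in Ikbkb-/- was not called in a fit of both Ikbkb experiments (edgeR FDR 0.120). Cyba for IkbkbCA against Ikbkb-/- was lost without Ikbkb+/+ replicate 1 or 2 or Ikbkb-/- replicate 3 (edgeR FDR 0.0527 to 0.0557), and Sod2 without Ikbkb-/- replicate 2, 3 or 4 (0.0511 to 0.0527). Without vehicle replicate 3, Ncf4 for tau fibrils against IkbkbCA was called (0.78, edgeR FDR 0.0367). Total-count scaling moved the median of all genes to -0.16 for tau fibrils (1057 higher and 2254 lower) and to -0.11 for IkbkbCA (753 and 1252). The causes were not tested. No paired analysis was possible because the replicate numbers only follow accession order. The 3 sets of libraries used as a covariate for IkbkbCA were read from the data and are not a pairing given by the labels. The fit that uses them is therefore no independent check.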
